A study of Bos taurus with 6 samples.

Results

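The transcripts described here are those of 39 antioxidant and glutathione genes, chosen by their function and found on the arrays by symbol, with older synonyms accepted, out of 15216 named genes. They had 72 probes, of which 64 were kept after a filter on dim spots, and 38 of the 39 genes were measured. No member passed the test after FGF8: the smallest adjusted p of any member was 0.860 (limma, Benjamini-Hochberg over all kept probes). Mean log2 ratios of treated over control RNA ran from -0.37 for GSTP1 to 0.62 for TXNIP, and 19 members had a mean above 0 and 19 a mean below it. The largest values came from single replicates, such as 2.24 for TXNIP in replicate 3 and -1.25 for TXNRD1 in replicate 1.

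Cells make superoxide and hydrogen peroxide as by-products of respiration and of steroid synthesis, the work of granulosa cells. Superoxide dismutases turn superoxide into hydrogen peroxide, and catalase, the glutathione peroxidases and the peroxiredoxins remove the peroxide, the last of these with thioredoxin as the usual source of electrons. Glutathione reductase and thioredoxin reductase restore glutathione and thioredoxin with NADPH, and glutathione transferases join glutathione to reactive compounds. The transcription factor NRF2, held down by KEAP1, drives many of these genes.

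The cells were granulosa cells of Holstein cattle, the somatic cells that line the ovarian follicle, from follicles of 2 to 6 mm. Treated cells had received FGF8, a secreted growth factor, at 10 ng/ml, and are labelled 2 h. Control cells were untreated and are labelled 0 h, so the effect of FGF8 and that of the time between the samples cannot be told apart. Both groups had been cultured up to day 5 without serum and with FSH and insulin at 10 ng/ml each. Each of 3 replicates was hybridised on 2 arrays with the dyes Cy5 and Cy3 swapped, which gives 6 arrays. The design calls the replicates biological, but whether they came from separate animals or cultures is not given, so p-values measure the spread between these samples. In such bulk RNA, fewer cells of a type and less RNA per cell cannot be told apart.

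The arrays' median Cy5 intensities lay between 110 and 163 and their median Cy3 intensities between 108 and 192, while negative controls had medians of 81 to 128 (Cy5) and 73 to 140 (Cy3). Of the 11 granulosa cell markers, 9 were above background on all 6 arrays, among them FSHR, CYP19A1, INHA and AMH, while FOXL2 and HSD17B1 were not kept. Markers of other cells were detected in part. Of 4 theca markers 2 were measured, NR2F2 (above background on all 6 arrays in both RNAs) and INSL3 (on 5 in treated and 4 in control RNA), while CYP17A1 and LHCGR were not kept. Of 5 endothelial markers 4 were measured, with KDR and TEK above background on all 6 arrays, and PECAM1 was above it on 0. Of 7 leukocyte and blood markers 6 were measured, and PTPRC, CD68, LYZ and HBA were above background on all 6 arrays. The part of such cells in the members' values was not tested. Over the whole array, 1 of 27210 kept probes passed the test of FGF8 (0.00368%), an unnamed probe at 2.92 ± 0.11, and 0 of 11190 genes did, with 355 higher and 275 lower at an unadjusted limma p under 0.05.

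All ratios below are log2 of treated over control RNA, each replicate being the mean of its 2 arrays, and means are given ± SD over 3 replicates. A gene is represented by its brightest kept probe; 15 members had more than 1 kept probe, and 10 of these had probes with means of opposite sign. The median probe of the members stood at percentile 93.0 of all probes by spot intensity, and 25 of 38 stood at percentile 90 or above. On all 6 arrays in both RNAs, 35 were above background. Each is the brightest kept probe of its gene and was ranked against all probes, dim ones included, which raises the percentile. These shares were not counted over all genes, so brightness cannot be called a trait of the members. No member spot was saturated. GPX3 and GSS were above background on 4 of 6 arrays in treated RNA and on 6 in control RNA, and GCLC on 6 in treated and 5 in control RNA. SOD3, the extracellular superoxide dismutase, was above it on 2 arrays in treated RNA and 3 in control RNA and was not measured.

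As a group the members stood where the whole array did. Their median log2 ratio was -0.0036, against 0.0052 over all 11190 genes, and their median size of ratio was 0.13, against 0.12. By replicate the members' medians were -0.018, -0.10 and -0.0037, against -0.0096, -0.0013 and 0.021 over all genes. No member was higher on all 6 arrays, which 3.44% of genes were, and 2 members, GSTO1 and MGST1, were lower on all 6, as were 2.53% of genes. Which members these are depended on the processing: with the mean foreground they were NFE2L2, higher, and PRDX6, lower, and with the mean of all kept probes of a gene MGST1 and PRDX6, both lower. At an unadjusted p under 0.05 no member was higher (3.17% of genes) and 1, PRDX6, was lower (2.46% of genes). In all 3 replicates 4 members were higher (NFE2L2, GCLM, PRDX1 and NQO1) and 6 lower (PRDX6, GSS, GSTO1, GSTP1, MGST1 and MGST3), beside 13.6% and 12.7% of genes. These shares lie near those of the array as a whole. The split of the directions depended on the centring: after centring the arrays by their medians and without loess, GCLM and NFE2L2 were the members higher at an unadjusted p under 0.05 (5.85% of genes) and none was lower (1.23%), and GCLM and PRDX1 were the members higher on all 6 arrays (5.51% of genes) and none was lower (1.79%).

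**Figure D1:**
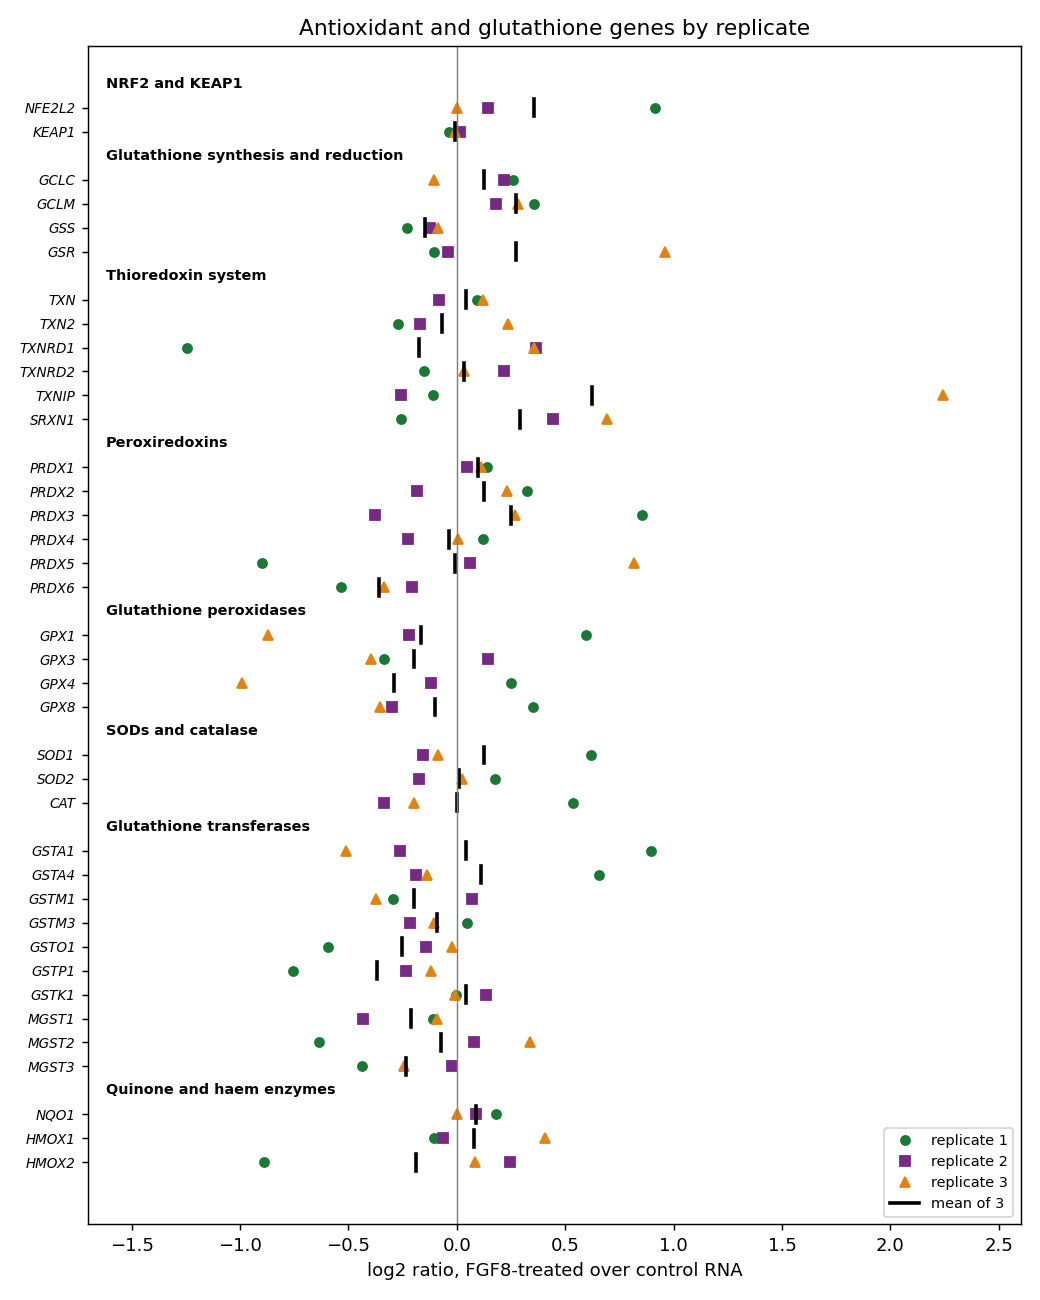
Log2 ratio of FGF8-treated over control RNA (horizontal axis) for the 38 measured genes grouped by role, with 1 symbol for each of 3 replicates and a black bar at their mean. Means lie between -0.37 and 0.62, and single replicates reach -1.25 for TXNRD1 and 2.24 for TXNIP.

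NFE2L2, which encodes NRF2, gave ratios of 0.91, 0.15 and 0.0027 in replicates 1, 2 and 3, a mean of 0.35 ± 0.49 (adjusted p = 0.860). Its normalised spot intensities were 8130, 5060 and 4370 in treated RNA, against 4320, 4570 and 4360 in control RNA. Replicate 1 alone stood high in treated RNA, the groups overlapped, and without it the mean was 0.074. KEAP1, the adaptor that sends NRF2 for destruction, had the smallest SD over replicates of the members, at -0.034, 0.016 and -0.0098 (mean -0.0091 ± 0.025). Its single arrays were less even, from -0.14 to 0.12.

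The genes of glutathione synthesis and reduction had a median ratio of 0.20, with 3 of 4 above 0 and none past the test. GCLM, the modifier subunit of the enzyme that makes the rate-limiting step of glutathione synthesis, gave 0.36, 0.18 and 0.28 (mean 0.27 ± 0.088; unadjusted p = 0.0662, adjusted p = 0.860 by limma). Its intensities were 1440, 1540 and 1490 in treated RNA, against 1130, 1360 and 1220 in control RNA, so all treated values lay above all control values. The size of its mean depended on the processing, at 0.043 with the mean foreground and 0.41 with arrays centred by their medians. Such a gap between the groups, in either direction, was seen in 8.13% of genes and in 3 members, GCLM, GSTP1 and MGST3. The 3 arrays of GCLM with treated RNA in Cy5 averaged 0.56 and the 3 with it in Cy3 averaged -0.018. GCLC, the catalytic subunit of the same enzyme, was dim and gave 0.26, 0.22 and -0.10 (mean 0.12 ± 0.20). Its intensities of 140, 132 and 118 in treated RNA overlapped those of 117, 114 and 127 in control RNA.

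GSS, which adds glycine to complete glutathione, was lower in all 3 replicates, at -0.23, -0.12 and -0.087 (mean -0.15 ± 0.075). It too was dim, with 110, 138 and 118 in treated RNA, against 129, 150 and 126 in control RNA, and its other 2 probes were not kept. GSR, glutathione reductase, was at -0.11 and -0.040 in replicates 1 and 2 and at 0.96 in replicate 3. Its intensity in replicate 3 was 3310 in treated RNA, against 1700 in control RNA, and without that replicate its mean of 0.27 ± 0.60 became -0.073.

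In the thioredoxin system 4 of 6 members had a mean above 0, with a median of 0.039 and none past the test. TXNIP, the protein that binds and blocks thioredoxin, gave -0.11, -0.26 and 2.24, a mean of 0.62 ± 1.40 (adjusted p = 0.870). Its intensities were 7190, 9330 and 35100 in treated RNA, against 7770, 11100 and 7430 in control RNA. The treated RNA of replicate 3 stood apart from the other 5 values on both of its arrays, with ratios of 2.13 and 2.35, and without that replicate the mean was -0.18. The second TXNIP probe was likewise high in replicate 3, at 1.61, and uneven elsewhere, at 0.30 and -0.57. The remaining kept probe, dim and near background, gave -0.082, -0.16 and -0.17.

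TXNRD1, the cytosolic thioredoxin reductase, was far below 0 in replicate 1 alone, with -1.25, 0.37 and 0.36 (mean -0.17 ± 0.93). Its intensities were 22400, 29800 and 30000 in treated RNA, against 53100, 23200 and 23400 in control RNA. Here it was the control RNA of replicate 1 that stood above the other 5 values, and without replicate 1 the mean was 0.36. SRXN1, sulfiredoxin, which repairs overoxidised peroxiredoxins, gave -0.26, 0.44 and 0.69 (mean 0.29 ± 0.49; adjusted p = 0.860). Treated intensities were 4200, 2890 and 3480, against 5030, 2120 and 2150 in control RNA, so replicate 1 was brighter in both RNAs and opposite in sign. Its dimmer second probe was above 0 in all 3 replicates, at 0.11, 0.17 and 0.48.

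TXN, cytosolic thioredoxin, lay close to 0 in each replicate (mean 0.045 ± 0.11). TXN2, its mitochondrial counterpart, gave -0.27, -0.17 and 0.24 (mean -0.068 ± 0.27). It had 6 kept probes with means from -0.22 to 0.39, and 1 of them reached 1.37 in replicate 3 while the others stayed at or below 0.24 there. TXNRD2, the mitochondrial reductase, was dim and gave -0.15, 0.22 and 0.034 (mean 0.034 ± 0.18).

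**Figure D2:**
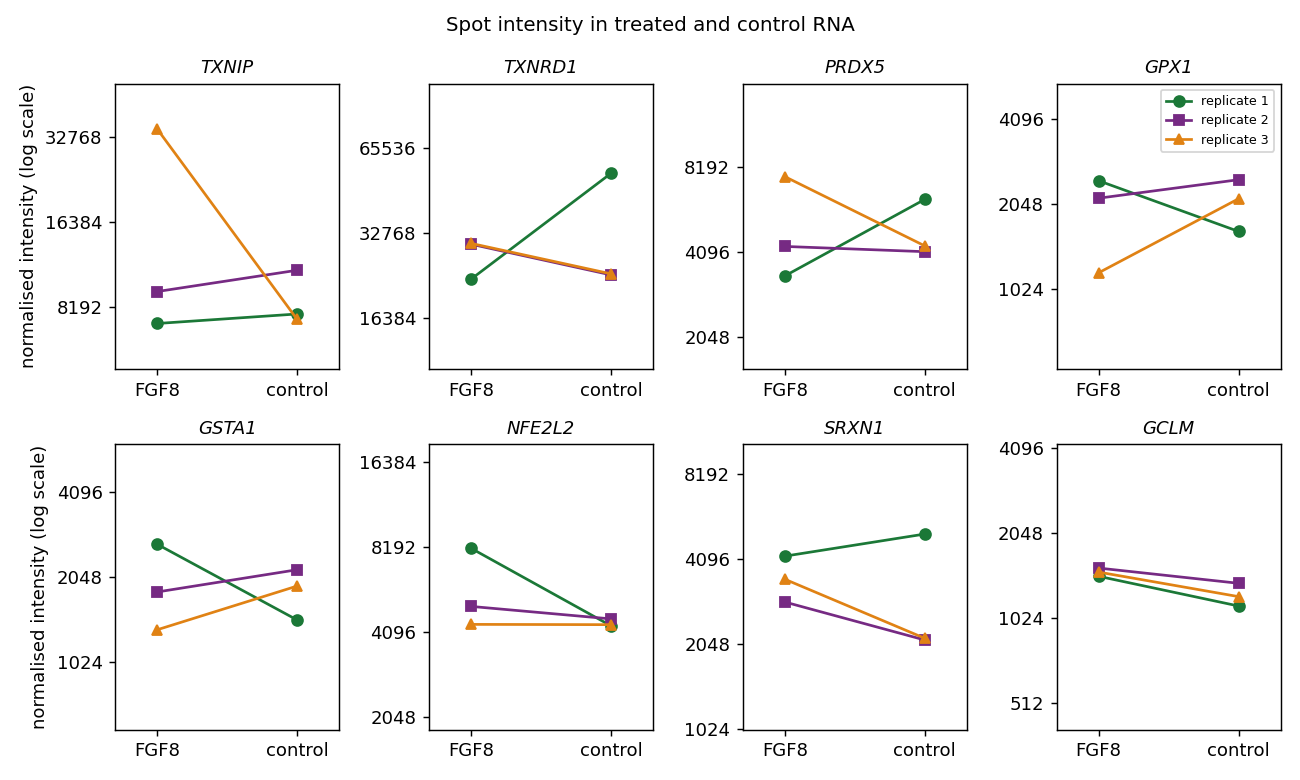
Normalised spot intensity (log scale, each panel spanning the same fold range) in FGF8-treated RNA on the left and control RNA on the right for 8 genes, with a line for each replicate. TXNIP is set apart by the treated RNA of replicate 3 (35100) and TXNRD1 by the control RNA of replicate 1 (53100), while the 3 lines of GCLM slope the same way.

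The 6 peroxiredoxins, abundant peroxide-removing enzymes, had a median of 0.046, with 3 means above 0 and 3 below. PRDX6, the member that uses glutathione in place of thioredoxin, gave -0.53, -0.21 and -0.33, a mean of -0.36 ± 0.17 (limma unadjusted p = 0.0324, adjusted p = 0.860). Its intensities were 28800, 27300 and 31600 in treated RNA, against 41800, 31400 and 39900 in control RNA. Treated RNA was the dimmer within each replicate and on 5 of 6 arrays, although the lowest control value lay just under the highest treated one. Of its 5 kept probes, 4 had means below 0, from -0.36 to -0.11, and 1 a mean of 0.055.

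PRDX1, a cytosolic peroxiredoxin, differed little between replicates, at 0.14, 0.048 and 0.11 (mean 0.099 ± 0.046), and was higher on 3 of 6 arrays. With the mean foreground its mean was 0.0012 and with arrays centred by their medians 0.23. PRDX3 and PRDX5, both found in mitochondria, were uneven. PRDX3 gave 0.85, -0.38 and 0.27 and PRDX5 gave -0.90, 0.061 and 0.82, with a PRDX5 mean of -0.0074 ± 0.86. For PRDX5 the intensities were 3380, 4300 and 7600 in treated RNA, against 6310, 4120 and 4320 in control RNA, so replicates 1 and 3 pointed in opposite directions by similar amounts. Its second probe was at -0.31, -0.27 and 0.13, with the same order of replicates 1 and 3 and smaller sizes. The second PRDX3 probe, a dim one, had a mean of -0.10, against 0.25 for the one that represents the gene. PRDX2, at 0.12 ± 0.27, had a second probe of opposite sign (-0.099), and PRDX4, the secretory-pathway form, was at -0.034 ± 0.17.

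All 4 members of the glutathione peroxidase family had means below 0, from -0.29 to -0.10, with a median of -0.18, and none passed the test. In replicate 1 alone, 3 of the 4 were above 0. GPX1, the cytosolic form, gave 0.60, -0.22 and -0.87 (mean -0.17 ± 0.73). GPX4, which reduces lipid peroxides in membranes, gave 0.25, -0.12 and -0.99 (mean -0.29 ± 0.64). Both were lowest in replicate 3, where GPX1 had an intensity of 1170 in treated RNA, against 2140 in control RNA, and GPX4 had 1580, against 3150. Without replicate 3 the means were 0.19 for GPX1 and 0.064 for GPX4. GPX3, the secreted form, was dim, and GPX8 belongs to the endoplasmic reticulum. Each had a second probe whose mean (0.067 and 0.13) was opposite in sign to the one that represents the gene (-0.20 and -0.10).

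SOD1, the cytosolic superoxide dismutase, gave 0.62, -0.16 and -0.087. SOD2, the mitochondrial manganese enzyme, gave 0.18, -0.17 and 0.023, and CAT, catalase, gave 0.54, -0.34 and -0.20. All 3 were highest in replicate 1, and their means were 0.13 ± 0.43, 0.0089 ± 0.18 and 0.0003 ± 0.47. The second SOD1 probe, at 0.42, -0.27 and -0.44, was also highest in replicate 1, but its mean of -0.096 was opposite in sign.

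Among the 10 glutathione transferases, 7 had means below 0 and the group's median was -0.14, with replicate medians of -0.20, -0.16 and -0.11. None passed the test. The transferases of the A and M classes are close paralogs, so a probe may take up transcripts of more than 1 gene and their values are uncertain. GSTO1, an omega-class transferase, was lower on all 6 arrays, with -0.59, -0.14 and -0.024 in the 3 replicates (mean -0.25 ± 0.30; adjusted p = 0.860). Its intensities were 3140, 6210 and 3370 in treated RNA, against 4740, 6840 and 3430 in control RNA. Without replicate 1 the mean was -0.082, and the second GSTO1 probe had a mean of -0.011 over all 3. MGST1, a membrane-bound transferase, was also lower on all 6 arrays, at -0.11, -0.43 and -0.090 (mean -0.21 ± 0.19; adjusted p = 0.860). Its treated intensities of 387, 288 and 253 overlapped the control intensities of 417, 389 and 270.

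GSTP1, the pi-class transferase, had the lowest mean of all members, with -0.75, -0.24 and -0.12 (mean -0.37 ± 0.34; unadjusted p = 0.0611, adjusted p = 0.860 by limma). Its intensities of 1930, 2010 and 2300 in treated RNA all lay below those of 3250, 2360 and 2490 in control RNA. Its other probes had means of -0.21 and 0.023. MGST3, another membrane-bound form, showed the same separation, with 4980, 5190 and 4650 in treated RNA, against 6750, 5270 and 5500 in control RNA (mean ratio -0.23 ± 0.21). GSTM1 gave -0.30, 0.071 and -0.37 (mean -0.20 ± 0.24), and the symbol is that of the platform annotation, since it is not a current bovine symbol in the RefSeq gene names. GSTA1 and GSTA4 were highest in replicate 1, at 0.89 and 0.66, and below 0 in the other 2 replicates. MGST2 was at -0.63 in replicate 1 and at 0.34 in replicate 3, and GSTM3 and GSTK1 had means of -0.091 and 0.041.

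**Figure D3:**
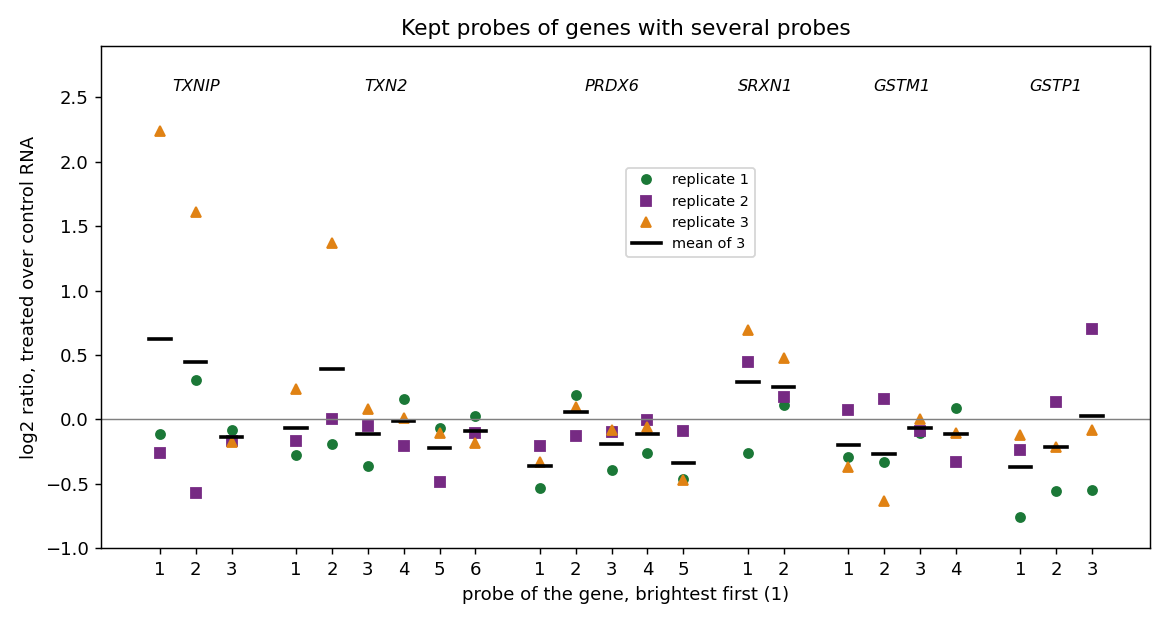
Log2 ratio of treated over control RNA for each kept probe of 6 genes, ordered by brightness within the gene, with a symbol for each replicate and a bar at the mean. Replicate 3 is high on 2 of the 3 TXNIP probes (2.24 and 1.61) and on 1 of the 6 TXN2 probes (1.37), and 4 of the 5 PRDX6 probes have a mean below 0.

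NQO1, a quinone reductase and a classical target of NRF2, was dim and lay at 0.18, 0.088 and 0.0017 (mean 0.091 ± 0.090). NQO1 was higher on 3 of 6 arrays, and the 2 dye-swapped arrays of each replicate had opposite signs. Its intensities were 160, 124 and 156 in treated RNA, against 141, 117 and 156 in control RNA. HMOX1, the inducible haem oxygenase, gave -0.11, -0.063 and 0.41 (mean 0.079 ± 0.28), with 216, 219 and 270 in treated RNA, against 233, 229 and 204 in control RNA. Only replicate 3 was above 0, and without it the mean was -0.085. HMOX2, the constitutive form, was at -0.89 in replicate 1 and at 0.24 and 0.085 in the other replicates.

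Replicate values differed widely for several members. The median SD over replicates was 0.29 for the members, against 0.25 for all genes. For 9 members (23.7%) the replicates differed by at least 1 on the log2 scale, as they did for 12.1% of genes, and these were GPX1, GPX4, PRDX3, PRDX5, TXNRD1, TXNIP, GSR, GSTA1 and HMOX2. The members' probes were brighter than most probes, although their brightness was not set against that of all genes. The ratios of dim probes are drawn towards 0 by the offset used here. What this adds to the difference in spread was not tested. The mean exceeded its SD in 8 members (21.1%), beside 22.9% of genes.

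The replicates did not share a pattern across the members. Over the 38 members the ratios of replicates 1 and 2 correlated at -0.39, those of replicates 1 and 3 at -0.26 and those of replicates 2 and 3 at 0.15, against -0.028, -0.056 and 0.12 over all genes. These are Pearson correlations across genes, which are not independent replicates. The 2 dye-swapped arrays of a replicate, which share their RNA extracts, correlated at 0.65 in replicate 1 and 0.58 in replicate 3, but at -0.13 in replicate 2. Over all genes these correlations were 0.575, 0.561 and -0.055 in the same order, so the lack of agreement in replicate 2 was not particular to the members. For 22 of 38 members the range between replicates was larger than the gap between the dye-swapped arrays of any replicate, as for 46.5% of genes. The replicate farthest from the other 2 was replicate 1 in 19 members, replicate 2 in 13 and replicate 3 in 6. The same count was not made over all genes, so it cannot be read as particular to the members. Replicate 1 lay on slides of its own and replicates 2 and 3 on a shared slide, as the array names read, so slide and replicate 1 cannot be told apart.

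**Figure D4:**
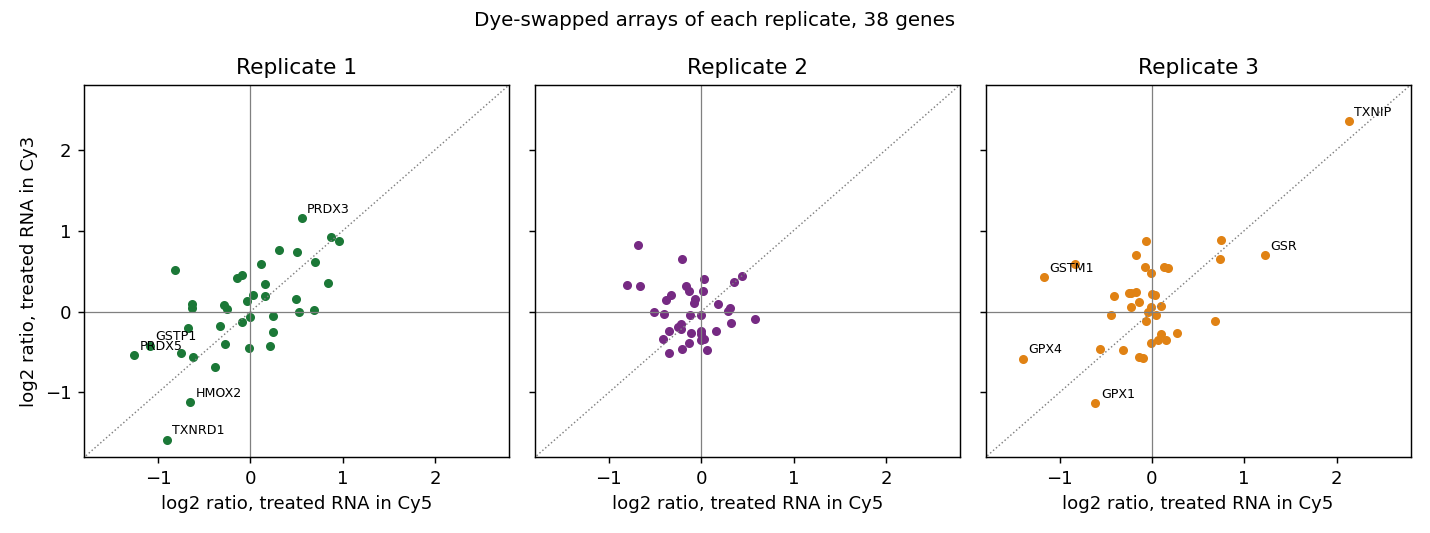
Log2 ratio of treated over control RNA on the array with treated RNA in Cy5 (horizontal) and on the array with treated RNA in Cy3 (vertical) for the 38 genes, in a panel for each replicate; the dotted line marks equal values, and genes beyond 1 on either array are named. The arrays correlate at 0.65 in replicate 1 and 0.58 in replicate 3 and at -0.13 in replicate 2, where no gene reaches 1.

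Swapping the dyes also showed which of the probes that represent the members depend on the dye. The mean of Cy5 over Cy3, in which the treatment cancels, differed from 0 for 2463 of 27210 probes (9.05%) at an adjusted limma p under 0.05, and for 5 of 38 members, beside 8.2% of genes. All 5 were brighter in Cy3, as were 3.8% of genes, and no member was among the 4.41% of genes brighter in Cy5. GSTM1 was at -0.63 (adjusted p = 0.000299), GSTP1 at -0.54 (adjusted p = 0.000965) and TXNRD2 at -0.43 (adjusted p = 0.00766). TXN2 followed at -0.39 (adjusted p = 0.0101) and HMOX1 at -0.31 (adjusted p = 0.0480). On the probes that represent these genes the treated-over-control ratio turned with the dye. GSTM1 averaged -0.83 with treated RNA in Cy5 and 0.43 with it in Cy3, and GSTP1 averaged -0.91 and 0.17 in the same order. The second-brightest probes of both genes had no dye effect called and were below 0 in both orientations. In the same order they averaged -0.017 and -0.52 for GSTM1 and -0.036 and -0.39 for GSTP1. TXN2 had other probes with a called effect (-0.43 and -0.40) and others without. PRDX6, with no dye effect called, was below 0 in both orientations, at -0.14 and -0.58, and so were GSTO1 (-0.22 and -0.28) and MGST1 (-0.17 and -0.26).

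**Figure D5:**
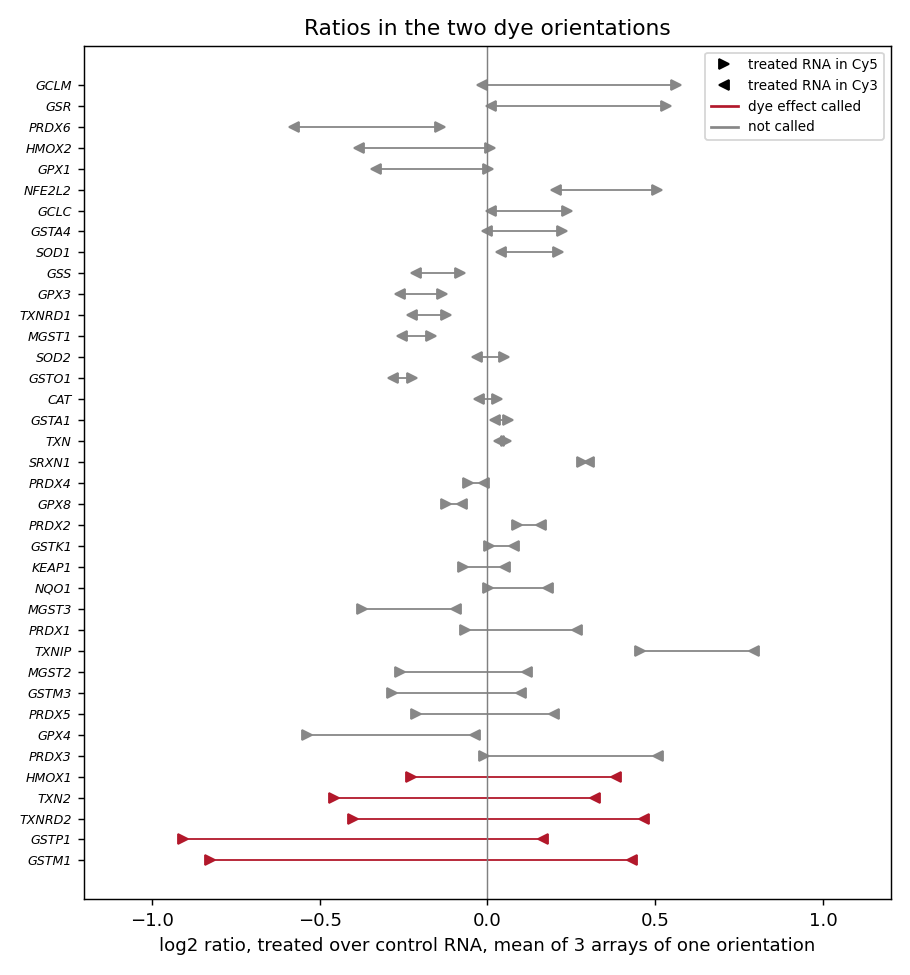
Mean log2 ratio of treated over control RNA over the 3 arrays with treated RNA in Cy5 (right-pointing) and the 3 with it in Cy3 (left-pointing) for each of the 38 genes, ordered by the dye effect. The 5 genes in red, at the bottom, have a called dye effect and a mean below 0 with treated RNA in Cy5 and above 0 with it in Cy3, as GSTM1 at -0.83 and 0.43.

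Other genes of the same chemistry were examined in 9 lists that hold none of the members. Of 102 genes listed, 78 were measured, none passed the test (smallest adjusted p 0.860), and their median ratio was 0.038. By list, the median ran from -0.051 for oxidant producers and -0.047 for cystine uptake and glutathione turnover to 0.12 for the metallothioneins and 0.22 for the 7 measured genes of NADPH supply. FECH, ferrochelatase, the last enzyme of haem synthesis, was the only one of the 78 higher on all 6 arrays, beside 3.44% of all genes. Its replicates were at 0.37, 0.41 and 0.90 (mean 0.56 ± 0.30, unadjusted p = 0.00973 and adjusted p = 0.860 by limma). Its intensities were 1110, 789 and 929 in treated RNA, against 860, 595 and 497 in control RNA. GLRX, glutaredoxin, which uses glutathione to reduce mixed disulphides, was the only one lower on all 6, beside 2.53% of all genes. Its intensities were 9340, 9920 and 9810 in treated RNA, against 11700, 11000 and 11900 in control RNA (mean ratio -0.25 ± 0.094, adjusted p = 0.860 by limma). The means of its 3 kept probes ran from -0.25 to 0.067. RAC2, a small GTPase of the NADPH oxidase of leukocytes, was lower in all 3 replicates, with 502, 485 and 464 in treated RNA, against 586, 661 and 555 in control RNA. The RAC2 ratio averaged -0.31 ± 0.12 and had an unadjusted p of 0.0470 and an adjusted p of 0.860 in the limma fit across all probes. At an unadjusted limma p under 0.05, only FECH of the 78 was higher and only RAC2 lower, beside 3.17% and 2.46% of all genes. The leukocyte markers CD68 and PTPRC had means of -0.38 and -0.27, while LYZ, CD3E and CD14 lay near 0, at -0.027, -0.030 and 0.0027. Of the 6 measured leukocyte and blood markers 5 had a mean below 0, beside 5460 of 11190 genes. The part of such cells in the RAC2 value was not tested.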

How the data were processed

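Per the file headers, the deposited scanner tables give each spot's foreground intensity and the intensity of its local background in Cy3 and Cy5, and the deposited value table holds log2 ratios whose direction, treated over control, was found by setting each array against its scanner values (correlation 0.994 to 0.999 with the ratios used here). The authors ran a scanner and image software not given in the sources used here. Per the labels' protocols, RNA was amplified in 2 rounds and labelled chemically.

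Median foreground was corrected with normexp (offset 50) and normalised by loess in limma 3.58.1 (R 4.3.3). The 143 probes marked as ignored were left out before the background fit. On the array of replicate 1 with treated RNA in Cy3, 1 such spot had a local background of 65483. With the ignored spots kept, the correction changed the background-subtracted Cy5 intensities there by a median of 442.2, against -45.1 without them. Probes were kept when above the 95th percentile of the 153 negative control spots in either RNA on at least 4 of 6 arrays (27210 of 43794). Gene names came from the platform annotation, which names 21790 probes, and 67 of the 72 member probes carry a current RefSeq symbol. Dye swaps were averaged, and lmFit and eBayes gave a two-sided test of the 3 ratios against 0, adjusted by Benjamini-Hochberg over all kept probes. The number of arrays limits the precision. Both RNAs with the same number lie on the same arrays, which pairs them by design; deviations of their channels correlated at 0.13, 0.41 and 0.39 within numbers.

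Every replicate's values are printed for members with 1 sign on all 6 arrays, an unadjusted p under 0.05 or a called dye effect, and for NFE2L2, KEAP1, GCLC, GCLM, NQO1, HMOX1, TXNRD1, SRXN1 and TXNIP. Other members whose values are printed were picked as examples after their values were seen. The members and lists were chosen with earlier results of these data known. The tests were tried on simulated data. Normalisation, foreground statistic, filter, dye orientation, replicates, variance model and choice of probe were each varied.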

Additional observations from a re-analysis of the deposited data

Results flagged for a closer look

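On the probes that represent 5 members the treated-over-control ratio differed between the dye orientations by the test of the dye effect. It is given as log2 of Cy5 over Cy3 over 3 replicates. GSTM1 was at -0.63, GSTP1 at -0.54, TXNRD2 at -0.43, TXN2 at -0.39 and HMOX1 at -0.31. With treated RNA in Cy5 the ratios of TXN2, TXNRD2 and HMOX1 averaged -0.46, -0.40 and -0.23, and with treated RNA in Cy3 they averaged 0.32, 0.47 and 0.38. In the mean of both orientations a dye effect cancels. The whole array gave such a dye effect in 8.2% of genes, beside 5 of 38 members.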

How the results depend on the processing

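No member passed an adjusted p under 0.05 in any of the 15 alternatives run, where the smallest member value ran from 0.104 (treated RNA in Cy5 only) to 0.990 (without replicate 3). In the replicate block fit, with the number as a random block over 6 arrays (correlation 0.178), it was 0.562, and 15 probes passed over the whole array, against 1 in the reported fit. That count was 10 when only arrays with treated RNA in Cy5 were used, 0 with ignored spots kept in the background fit (an alternative chosen after seeing the data), and 0 to 1 when leaving out a replicate (0 without replicate 2). The count of members at an unadjusted p under 0.05 was 1 as reported, 2 with median centring, 3 with no filter, 6 for treated RNA in Cy5 alone and 2 for treated RNA in Cy3 alone, 0 with an intensity trend, 0 with the mean of all probes, 2 with ignored spots kept, and 1 to 2 when leaving out a replicate. The members' median of -0.0036 became 0.059 with median centring (0.037 over all genes), -0.060 with the mean foreground and -0.063 with treated RNA in Cy5. Dye effects were called for 2463 probes as reported, 10204 with the mean foreground, and 1366 to 2367 when leaving out a replicate, the lowest without replicate 2. Members with 1 sign on all 6 arrays were not counted for settings with fewer arrays. Slide as a random block could not be fitted over 3 replicates.

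The sign of the mean held under all 15 alternatives for 10 members (PRDX2, PRDX6, SRXN1, GCLC, GSS, GSTO1, MGST1, MGST3, NQO1 and NFE2L2). It turned in at least 1 for the other 28, and the cause was not tested. The changes of filter, the replicate block and the intensity trend left each member's mean as it was, so no sign could turn there. The same holds for the mean of all probes where a gene has 1 kept probe. Without a turn of sign, GCLM moved to 0.043 (mean foreground) and 0.41 (median centring), PRDX1 to 0.0012 and 0.23, GSTO1 to -0.13 and -0.10, and MGST1 to -0.10 with the mean foreground, while PRDX6 moved to -0.19 and GSTO1 to -0.13 with the mean of all probes. With median centring the sign turned for GPX8 (0.040), GSTM3 (0.050), KEAP1 (0.038), MGST2 (0.031), PRDX4 (0.083), PRDX5 (0.13) and TXN2 (0.047). With scale normalisation it turned for CAT (-0.019) and PRDX5 (0.0032). With the mean foreground it turned for GPX8 (0.025), GSTK1 (-0.078), GSTM3 (0.021), TXN (-0.063) and TXNRD2 (-0.068). With the mean of all probes it turned for GPX8 (0.015). With ignored spots kept it turned for GPX3 (0.048), PRDX5 (0.0043) and TXNRD2 (-0.029). With treated RNA in Cy5 alone it turned for GPX1 (0.0011), HMOX1 (-0.23), HMOX2 (0.0083), PRDX1 (-0.068), PRDX3 (-0.010) and TXNRD2 (-0.40). With treated RNA in Cy3 alone it turned for CAT (-0.026), GCLM (-0.018), GSTA4 (-0.0012), GSTM1 (0.43), GSTM3 (0.10), GSTP1 (0.17), KEAP1 (0.053), MGST2 (0.12), PRDX5 (0.20), SOD2 (-0.032) and TXN2 (0.32). Leaving out each replicate turned 21 members, with ranges of -0.27 to 0.17 for CAT, -0.55 to 0.19 for GPX1, -0.56 to 0.064 for GPX4, -0.33 to 0.026 for GPX8, -0.073 to 0.46 for GSR, -0.39 to 0.32 for GSTA1, -0.16 to 0.26 for GSTA4, -0.0055 to 0.067 for GSTK1, -0.085 to 0.17 for HMOX1, -0.40 to 0.16 for HMOX2 and -0.022 to 0.0033 for KEAP1. The others ranged from -0.28 to 0.21 for MGST2, -0.055 to 0.56 for PRDX3, -0.11 to 0.061 for PRDX4, -0.42 to 0.44 for PRDX5, -0.12 to 0.27 for SOD1, -0.075 to 0.10 for SOD2, -0.22 to 0.034 for TXN2, -0.18 to 1.06 for TXNIP, -0.44 to 0.36 for TXNRD1 and -0.058 to 0.13 for TXNRD2. Signal over background limits GPX3, GSS and GCLC, which were near the negative controls on some arrays.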
